A study of Mus musculus with 18 samples.

Results

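The striated muscle microRNAs described here are mmu-miR-1a-3p, mmu-miR-133a-3p, mmu-miR-133a-5p, mmu-miR-133b-3p and mmu-miR-206-3p. They were taken by name as 5 of the 1251 entries of the mouse microRNA table. The rule that names them uses no measured value, though they were chosen with earlier results of these data known. The table holds 18 small RNA libraries, from 3 sample types of each of 6 mice numbered 2, 3, 7, 8, 9 and 10. All mice were female littermates of the SKH-1E Hairless strain, which lacks a functional Hairless gene and forms skin tumours readily under ultraviolet radiation, and all were irradiated chronically with solar simulators. The sample types were nonlesional chronically irradiated skin (CHR), papilloma (PAP) and cutaneous squamous cell carcinoma (cuSCC), so that the CHR controls carried the same irradiation as the lesions and no unirradiated skin was compared. Sample types therefore differ by lesion within the same animals, and each has n = 6. The lesions were whole tissue pieces graded by histology, so their libraries hold tumour cells together with the cells around them. The paper estimates that tumour cells made up most of the papillomas and carcinomas, whereas CHR was nonlesional skin.

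MicroRNAs are short RNAs that pair with messenger RNAs, mainly through the bases near their 5′ end called the seed, and lower the output of those messengers. miR-1 and miR-206 are close relatives with the same seed, miR-133a and miR-133b form the other family, and the genes lie in pairs, miR-1 beside miR-133a and miR-206 beside miR-133b, under the control of the muscle factors MyoD, MEF2 and SRF. miR-1 and miR-133a are abundant in skeletal and heart muscle, while miR-206 is largely restricted to skeletal muscle. In mouse skin, striated muscle forms a thin sheet below the dermis, the panniculus carnosus, and whether the pieces held it was not tested.

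Mature sequences for 2 of the 5 members were found in RefSeq (GRCm38.p6), and they are shown because the later results turn on how these neighbours moved together. The seed, bases 2 to 8 counted from the 5′ end, is in capitals.
mmu-miR-133b-3p: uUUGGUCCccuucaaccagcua
mmu-miR-206-3p: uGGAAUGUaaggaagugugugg
The seed of mmu-miR-133b-3p was held by 1 of the 1679 mature names in the RefSeq table, itself, and the seed of mmu-miR-206-3p by 3, the others being mmu-miR-6349 and mmu-miR-6382. The seeds of mmu-miR-1a-3p and mmu-miR-133a-3p were not part of that search. The 2 seeds differ. The mature forms of miR-133a-3p and miR-133b-3p, in contrast, are known to be almost identical and to part only at the 3′ end, and neither the values nor the labels show how reads were divided between them. The level of miR-133b-3p is uncertain to that extent.

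Each of these arms is cut from a hairpin, and the hairpins of miR-206 and miR-133b are neighbours. Mir206 lies at chr1:20679010-20679082 and Mir133b at chr1:20682769-20682887 of GRCm38, both on the + strand, with 3686 bases between them. Both lie in the long noncoding RNA gene Gm28653. Mir133b falls wholly within an exon of each of its overlapping transcripts, exon 1 of one and exon 3 of another, and Mir206 in part within exon 1 of the former. Mir1a-1 and Mir133a-2 form a pair of the other kind, at chr2:180389048-180389124 and chr2:180398379-180398482 on the + strand. They lie 9254 bases apart, where the annotation holds no overlapping gene. Other copies of the miR-1a and miR-133a genes were not looked up. The hairpins with the mature arm in capitals show where it is cut, at bases 66 to 87 of 119 in Mir133b and at bases 46 to 67 of 73 in Mir206.
Mir133b: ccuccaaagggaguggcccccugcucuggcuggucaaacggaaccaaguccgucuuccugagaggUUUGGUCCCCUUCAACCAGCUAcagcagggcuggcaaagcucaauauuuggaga
Mir206: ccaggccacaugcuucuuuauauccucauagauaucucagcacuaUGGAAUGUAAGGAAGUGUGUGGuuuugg

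Levels are given as deposited, on a log2 scale of ppm of the usable reads that was quantile normalized, which makes the values of all libraries follow nearly the same distribution. They are relative levels, and the read depth of a library is unknown. The lowest value of the table, 3.32 (the log2 of 10 ppm), was read as not detected. Per library 200 to 328 entries were detected for CHR, 163 to 281 for PAP and 236 to 365 for cuSCC, fewer in PAP than in CHR (two-sided exact permutation test, p = 0.0433) and than in cuSCC (exact permutation test, p = 0.0108). The lowest value that a detected entry took lay at 3.39 to 5.77 among CHR libraries, at 3.71 to 6.83 among PAP libraries and at 3.32 to 4.50 among cuSCC libraries. An undetected microRNA can lie anywhere below that limit. The keratinocyte microRNA miR-205-5p stood at 17.4 to 18.5 over all 18 libraries, which does not tell the sample types apart. The cuSCC of mouse 10 stood apart from the other 5 cuSCC in what follows, and results that rest on it are given with and without it.

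The highest of the muscle microRNAs in CHR was mmu-miR-133a-3p, which in heart muscle is known to hold smooth muscle genes in check. In CHR it stood at 15.44 (lowest), 15.56 (median) and 15.98 (highest), which was rank 10 to 14 of all entries of its library. In PAP it was undetected in mice 3, 7 and 10 and stood at 4.95, 6.17 and 12.44 in mice 8, 9 and 2, with a median over all 6 of 4.14. Every PAP lay below every CHR, yet the PAP of mouse 2 was far above the other 5.

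In cuSCC mmu-miR-133a-3p stood at 5.16, 13.66 and 14.22 (lowest, median and highest). All 6 cuSCC lay below all 6 CHR, with 5 of them between 13.55 and 14.22 and that of mouse 10 at 5.16. In those 5 libraries it held ranks 23 to 28, and rank 208 in mouse 10. Within each mouse CHR was the highest of the 3, and cuSCC lay above PAP in 5 of 6 mice. In mouse 10 the order of the lesions is unknown, as its PAP was undetected under a limit of 6.83, above the 5.16 of its cuSCC. PAP differed from CHR by a median of -11.36 (log2), from -12.37 to -3.54, and cuSCC differed from CHR by a median of -1.88, from -10.53 to -1.34.

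Far lower in level were mmu-miR-133b-3p and mmu-miR-206-3p, the pair from chromosome 1. mmu-miR-206-3p promotes muscle differentiation and the repair of nerve to muscle contacts. mmu-miR-133b-3p stood at 5.45, 6.12 and 7.01 in CHR, was undetected in all 6 PAP, and stood at 3.32, 5.996 and 7.46 in cuSCC. mmu-miR-206-3p stood at 5.32, 6.52 and 7.52 in CHR, was undetected in all 6 PAP, and stood at 3.32, 6.38 and 7.76 in cuSCC. The values of CHR and cuSCC overlapped for both, and the 1 cuSCC in which either was undetected was that of mouse 10.

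The 2 remaining members were near or below detection throughout. mmu-miR-133a-5p, the passenger arm that is cut from the same hairpin as miR-133a-3p, was detected in 4 CHR (highest 4.44), no PAP and 2 cuSCC (highest 3.57). mmu-miR-1a-3p, the partner of miR-133a in the other cluster and in muscle tissue one of the most abundant microRNAs, was undetected in 17 of the 18 libraries and stood at 3.47 in the cuSCC of mouse 2. Thus in the deposited values a library could hold mmu-miR-133a-3p among its leading entries while the neighbour of its gene was at the lowest value. How reads were assigned to these names is not known here. Whether the absence of mmu-miR-1a-3p reflects the tissue was not tested.

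**Figure D1:**
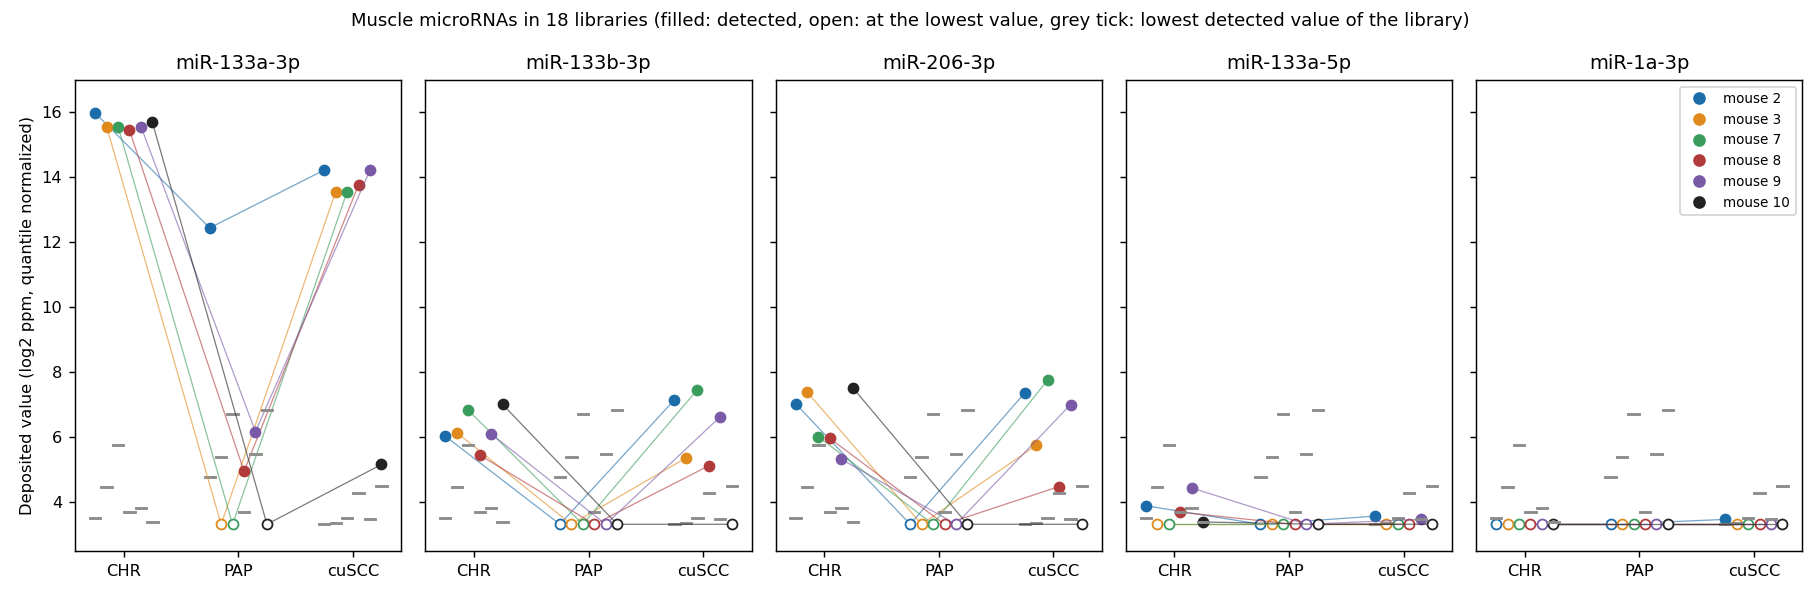
Levels (log2 ppm, quantile normalized) of the 5 muscle microRNAs in each of the 18 libraries, by sample type, with lines joining the libraries of 1 mouse. Filled points were detected, open points stand at the lowest value, and grey ticks show the lowest detected value of each library. miR-133a-3p was at 15.44 to 15.98 in CHR, fell in PAP to the lowest value in 3 of 6 libraries, and stood at 13.55 to 14.22 in 5 of 6 cuSCC.

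The other arms and copies of the same hairpins gave no signal. Of 7 such entries, miR-1a-1-5p, miR-1a-2-5p, miR-1b-5p, miR-1b-3p, miR-133b-5p, miR-206-5p and miR-133c, none was detected in any library. Of 10 entries of other microRNAs known from muscle, the 6 from the heart and slow muscle myosin genes, miR-208a-3p, miR-208a-5p, miR-208b-3p, miR-208b-5p, miR-499-5p and miR-499-3p, were undetected in all 18 libraries. The other 4, from miR-486 and miR-378a, were detected and are compared below.

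The first comparison asked how papilloma differed from the irradiated skin of the same mice. With the linear model of limma on the 293 microRNAs detected in at least 6 libraries, 4 of the 5 members were tested, as mmu-miR-1a-3p did not pass the filter. At an adjusted p under 0.05 (Benjamini-Hochberg over all 293), 3 of the 4 fell in PAP, against a background of 18.4% of all tested microRNAs called lower. At the thresholds of the study, 1.5-fold with an unadjusted p under 0.05 and no moderation, 3 of the 4 were lower, against a background of 22.2%. In the values as deposited every PAP lay below every CHR for 3 of the 4, a pattern shown by 9.56% of all tested microRNAs in that direction. For mmu-miR-133b-3p and mmu-miR-206-3p this rests on placing undetected PAP at the lowest value, and only for mmu-miR-133a-3p does it hold whatever their level under the limit. The median difference of the 4 was -3.08, beside -0.23 over all 293. Except for mmu-miR-133a-3p, these 4 were detected in no PAP and passed the filter only through CHR and cuSCC. These counts therefore describe the 4 and do not speak for all members.

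mmu-miR-133a-3p moved most of the 4, by -10.04 (SE 1.30, 95% confidence interval -12.87 to -7.22, adjusted p = 7.65e-05 by limma). Because 3 PAP libraries were undetected and are set at the lowest value, the size depends on where an undetected value is placed. With each undetected value raised to its library's lowest detected value, the difference was -8.55 (limma, adjusted p = 5.32e-06). Without the PAP of mouse 2, left out after seeing the data, it was -11.41 (limma, adjusted p = 1.53e-08). It was called lower in each of these.

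mmu-miR-133b-3p fell in PAP by 2.94 (SE 0.27, limma adjusted p = 6.67e-06) and mmu-miR-206-3p fell by 3.22 (SE 0.37, limma adjusted p = 2.62e-05), measured down to the lowest value of the table. All PAP values of both stand at that value, so the PAP libraries add no spread to these SE and p-values. The calls did not hold with undetected values raised in this way, at -0.77 (adjusted p = 0.208 by limma) and -1.05 (adjusted p = 0.13 by limma). That placing moved the median of all 293 from -0.23 to 0.44, and relative to it these differences were -1.22 and -1.50. The lowest detected value exceeded the lowest CHR level of mmu-miR-133b-3p in 3 of the 6 PAP libraries and that of mmu-miR-206-3p in 4 of 6. Within mice, however, the CHR level of mmu-miR-133b-3p lay above the limit of the same mouse's PAP in 6 of 6 and that of mmu-miR-206-3p in 4 of 6. In PAP both were thus under the limit of each library, and how far under was not measured.

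mmu-miR-133a-5p did not pass the test, with a difference of -0.35 (SE 0.24, 95% confidence interval -0.86 to 0.16, limma adjusted p = 0.276). Its levels were so near the lowest value that the placing of undetected values turned the sign, to 1.21 (limma, adjusted p = 0.0794).

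The second comparison set cuSCC against the irradiated skin. At an adjusted p under 0.05, 1 of the 4 tested members, mmu-miR-133a-3p, was lower in cuSCC, against a background of 22.2% of all 293. At the thresholds of the study 0 of the 4 were lower, against a background of 24.2%, with 1 of the 4 below an unadjusted p of 0.05 under limma. Every cuSCC lay below every CHR for 1 of the 4, beside 10.6% of all tested microRNAs. The median difference of the 4 was -0.51, beside 0.11 over all.

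For mmu-miR-133a-3p the difference was -3.22 (SE 1.23, 95% confidence interval -5.85 to -0.59, limma adjusted p = 0.0476). Without the cuSCC of mouse 10 it was -1.77 with an adjusted p of 0.000121 by limma. Without 1 of mice 2, 3, 7, 8 or 9 it was -3.60 to -3.46, and it lost the call (limma, adjusted p = 0.0638 to 0.0903). The exact permutation test per microRNA called it (adjusted p = 0.0106). The direction was the same in 6 of 6 mice.

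mmu-miR-133b-3p and mmu-miR-206-3p were not called in cuSCC against CHR. Their differences were -0.42 (95% confidence interval -1.70 to 0.87, limma adjusted p = 0.579) and -0.59 (95% confidence interval -2.10 to 0.91, limma adjusted p = 0.507). Each was lower in cuSCC in 3 mice and higher in 3. Without the cuSCC of mouse 10 they were 0.09 and -0.07 (limma, adjusted p = 0.882 and 0.927). For mmu-miR-133a-5p the difference was -0.29 (SE 0.26, limma adjusted p = 0.372).

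The third comparison set cuSCC against papilloma, and it shares the cuSCC and PAP libraries with the other comparisons. At an adjusted p under 0.05, 3 of the 4 tested members were higher in cuSCC, against a background of 9.22% of all 293. At the thresholds of the study 3 of the 4 were higher, against a background of 15.7%. The median difference of the 4 was 2.57, beside 0.21 over all. The limit that the filter sets on the counts of PAP against CHR holds here too, so these counts only describe the 4.

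In cuSCC against PAP mmu-miR-133a-3p differed by 6.82 (SE 1.84, 95% confidence interval 2.82 to 10.82, limma adjusted p = 0.0394), higher in 5 of 6 mice and unknown in mouse 10. mmu-miR-133b-3p differed by 2.52 (SE 0.60, limma adjusted p = 0.0319) and mmu-miR-206-3p by 2.62 (SE 0.67, limma adjusted p = 0.0383), and the cuSCC level lay above the limit of the same mouse's PAP in 4 and 5 of 6 mice. Here too the PAP values of mmu-miR-133b-3p and mmu-miR-206-3p, all at the lowest value, add no spread to the SE and p-values. In mouse 10 both were undetected in either lesion. mmu-miR-133a-5p, at 0.07 (SE 0.19, limma adjusted p = 0.838), was not called.

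All 3 calls in cuSCC against PAP were lost under several settings, in which most calls over all microRNAs were lost too. Raising undetected values to the library's lowest detected value lost only part of the 3. In that setting fewer of all microRNAs were called higher and more were called lower. With values under 100 ppm raised to 100 ppm, all 3 were lost and 2 of all 293 were called higher. The exact permutation test per microRNA gave each of them an adjusted p of 0.0945 and called 0 of all 293, while limma left 3 of the 4 members at an unadjusted p under 0.05. With undetected values raised to the library's lowest detected value mmu-miR-133a-3p was still called at 5.32 (limma, adjusted p = 0.0262), but mmu-miR-133b-3p and mmu-miR-206-3p were at 0.55 (adjusted p = 0.512 by limma) and 0.66 (adjusted p = 0.471 by limma), while the median of all 293 moved from 0.21 to -0.48. In that setting mmu-miR-133a-5p was called in the other direction, at -1.70 (limma, adjusted p = 0.0269). Of all 293, 18 were then called higher and 62 lower, against 27 and 7 in the values as deposited. Without the cuSCC of mouse 10 the 3 differences were 8.27, 3.02 and 3.15 (limma, adjusted p = 0.00215, 0.000836 and 0.00169). Without 1 of mice 3, 7, 8 or 9 none of the 3 was called by limma, at differences of 6.14 to 6.58, 2.20 to 2.66 and 2.26 to 2.92, and 1, 1, 1 and 9 of all 293 were then called higher, against 27 with all mice. Without mouse 2 mmu-miR-133a-3p was the 1 of the 3 called, at 7.83 (limma, adjusted p = 0.0405), with 7 of all 293 called higher.

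**Figure D2:**
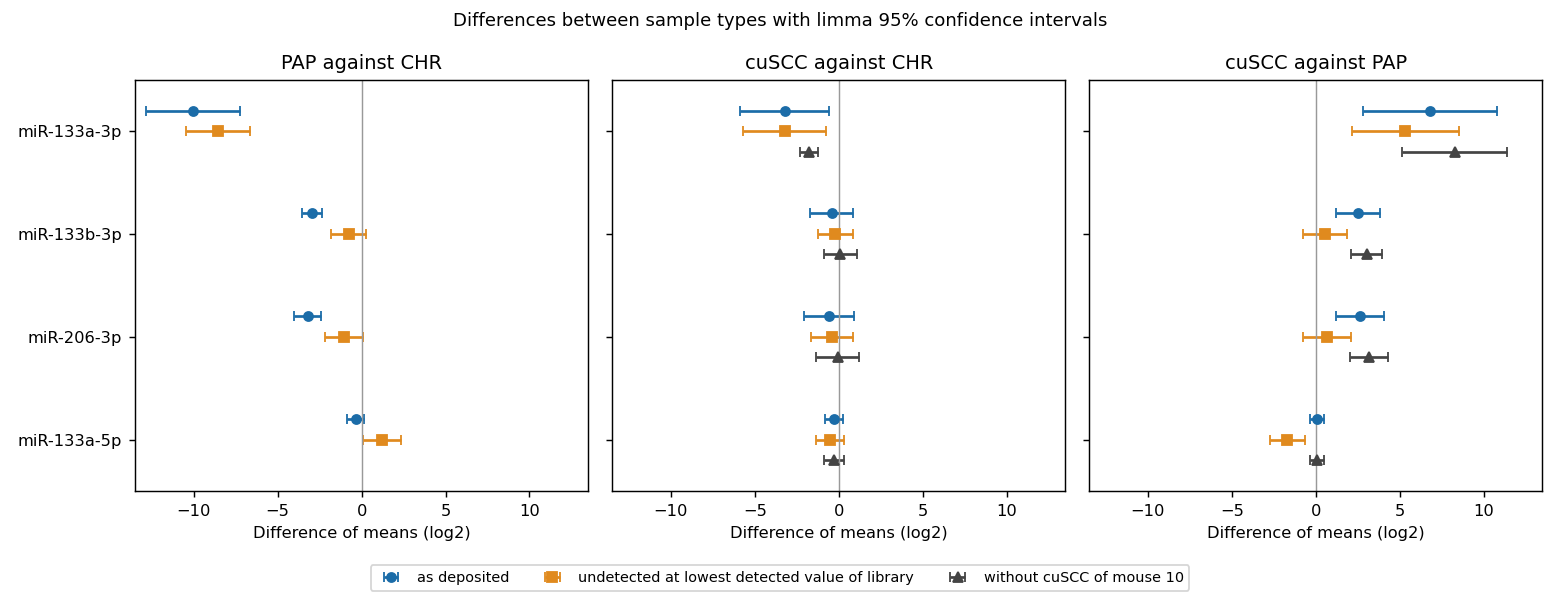
Differences of the means (log2) of the 4 tested members in the 3 comparisons, with 95% confidence intervals from limma, for the values as deposited, with undetected values raised to the library's lowest detected value, and without the cuSCC of mouse 10. The intervals of miR-133a-3p stay clear of 0 in all of them, while those of miR-133b-3p and miR-206-3p span 0 in cuSCC against CHR and, in the 2 comparisons with PAP, once undetected values are raised.

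The members did not move as a block, which was examined through differences between 2 members within the same library. For CHR mmu-miR-133b-3p minus mmu-miR-133a-3p was -9.37 ± 0.57 (SD, n = 6), and for cuSCC -6.57 ± 2.48 (SD, n = 6), a change of 2.81 (two-sided exact permutation test, p = 0.00216, adjusted p = 0.00433 over 12 differences, the raw p being the smallest possible). All 6 cuSCC lay above all 6 CHR in this difference, so mmu-miR-133a-3p was lower relative to mmu-miR-133b-3p in cuSCC. Without the cuSCC of mouse 10 the change was 1.86 (exact permutation test, adjusted p = 0.00433). Hence in these libraries mmu-miR-133a-3p differed more between CHR and cuSCC than mmu-miR-133b-3p did.

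In PAP the same difference was -2.27 ± 3.55 (SD, n = 6), and as mmu-miR-133b-3p was undetected there, it carries the level of mmu-miR-133a-3p alone. The change was 7.11 against CHR (exact permutation test, adjusted p = 0.00866) and -4.30 from PAP to cuSCC (exact permutation test, adjusted p = 0.0567). The 2 arms of the miR-133a hairpin, mmu-miR-133a-5p minus mmu-miR-133a-3p, differed by -11.96 ± 0.45 for CHR and by -9.02 ± 3.53 for cuSCC (SD, n = 6). That change was 2.94 (exact permutation test, adjusted p = 0.00433), and 1.499 without the cuSCC of mouse 10 (exact permutation test, adjusted p = 0.00577). It too is bounded by the lowest value, since the passenger arm was detected in 6 of the 18 libraries and near that value there. The difference thus mostly carries the level of mmu-miR-133a-3p and does not show how the 2 arms relate. With undetected values raised to the library's lowest detected value the change was 2.73, and 1.14 also without the cuSCC of mouse 10 (exact permutation test, adjusted p = 0.0234 and 0.0425). CHR and cuSCC then overlapped. Differences from mmu-miR-1a-3p gave nothing beyond the levels themselves, because it was at the lowest value in 17 of 18 libraries.

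Across the 6 cuSCC, the neighbours mmu-miR-133b-3p and mmu-miR-206-3p followed each other closely. Pearson's r was 0.98 (exact permutation test, p = 0.00139, adjusted p = 0.00833 over 6 relations) and Spearman's rho 1.0 (exact permutation test, p = 0.00278, adjusted p = 0.0167), with r = 0.948 without the 2 libraries farthest from the median, which leaves 4. In CHR the same pair gave r = 0.343 and rho = 0.60, and did not pass (exact permutation test, adjusted p = 0.575 and 0.52). mmu-miR-133a-3p against either of them in cuSCC gave r = 0.808 and 0.744 (exact permutation test, adjusted p = 0.111 each), and 0.294 and 0.191 without the 2 farthest libraries, so those relations rested on these libraries. Whether the relation differs between CHR and cuSCC was not tested.

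**Figure D3:**
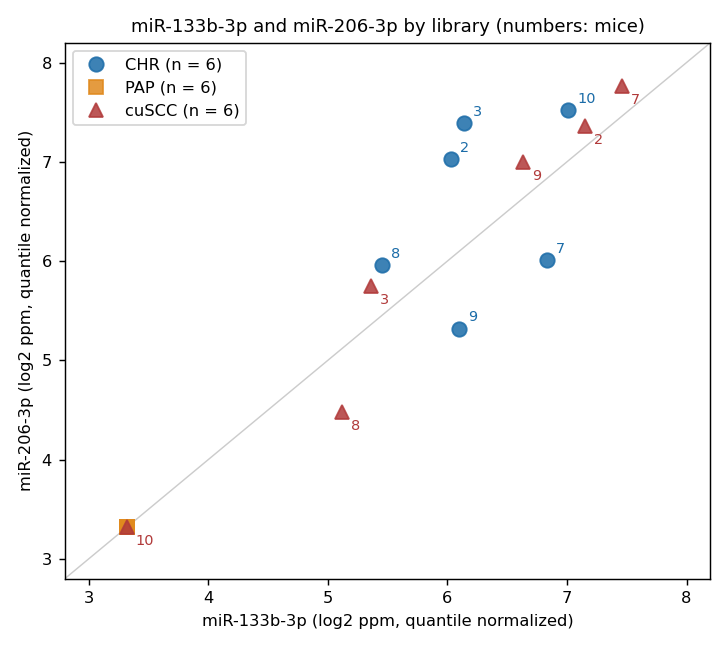
mmu-miR-206-3p against mmu-miR-133b-3p (both log2 ppm, quantile normalized) in the 18 libraries, numbered by mouse, with a line of equal levels. The cuSCC points rise together from mouse 10, at the lowest value for both, to mouse 7 at 7.46 and 7.76, while the 6 CHR points are scattered and the 6 PAP points all stand at the lowest value.

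Among microRNAs outside the 5 members, those whose levels over the 18 libraries were most like the mean of the 4 tested members were miR-1247-5p (r = 0.908), miR-195a-3p (r = 0.905), miR-669a-3p and miR-669o-3p (r = 0.87 each, with the same values in every library) and miR-145a-5p (r = 0.864), against a median of 0.0775 over all other tested microRNAs. These correlations are descriptions over libraries that share mice, sample types and a normalization. miR-1247-5p spanned 6.35 to 7.80 among CHR, 3.32 to 5.11 among PAP and 3.32 to 7.05 among cuSCC. It resembled mmu-miR-206-3p and mmu-miR-133b-3p in level and in being at the lowest value in at least 1 cuSCC. miR-669a-3p and miR-669o-3p were, like that pair, undetected in every PAP. Each differed by -3.04 in PAP against CHR and by 3.08 in cuSCC against PAP (limma, adjusted p = 2.6e-05 and 0.0206). In cuSCC against CHR each differed by 0.04 (limma, adjusted p = 0.959). The pattern of mmu-miR-133b-3p and mmu-miR-206-3p was thus not particular to the members.

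Other muscle microRNAs were compared in the same way, and their difference from the members was not tested. In PAP against CHR limma called 0 of the 4 tested in either direction, and 0 at an unadjusted p under 0.05, with a median difference of -0.49. miR-486-5p, which is made in muscle and in red blood cells, spanned 16.7 to 17.8 among CHR, 16.7 to 18.2 among PAP and 14.8 to 17.8 among cuSCC. In cuSCC against CHR all 4 fell, beside the 22.2% of all 293 called lower there, with differences of -3.05 for miR-486-3p (limma, adjusted p = 0.00468), -1.27 for miR-486-5p (limma, adjusted p = 0.0325), -1.07 for miR-378a-3p (limma, adjusted p = 0.00671) and -0.86 for miR-378a-5p (limma, adjusted p = 0.0325). miR-378a lies within the gene for the metabolic coactivator Ppargc1b. In cuSCC against PAP 1 of the 4, miR-486-5p, fell by 1.83 (limma, adjusted p = 0.0394).

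Markers of other cell types moved with the members in part. The counts of the marker lists stand beside those over all 293 tested microRNAs. Of these, 41 were called higher and 54 lower in PAP against CHR. In cuSCC against CHR 59 were called higher and 65 lower, and in cuSCC against PAP 27 and 7. The summed level of 4 smooth muscle entries (log2 of the sum) spanned 13.7 to 14.7 among CHR, 10.9 to 13.3 among PAP and 12.2 to 15.1 among cuSCC. In PAP against CHR 2 of its 3 tested entries were called lower, miR-143-3p at -1.53 (limma, adjusted p = 0.0125) and miR-145a-5p at -2.83 (limma, adjusted p = 0.000452). In cuSCC against CHR miR-145a-5p fell by 1.78 (limma, adjusted p = 0.014), and in cuSCC against PAP miR-143-3p rose by 1.98 (limma, adjusted p = 0.0402).

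The summed level of 6 fibroblast entries spanned 12.96 to 13.499 among CHR, 8.42 to 13.02 among PAP and 10.84 to 14.18 among cuSCC. Of the 6, 3 were lower in PAP against CHR and 3 were higher in cuSCC against PAP. In cuSCC against CHR limma called 0 of 6. There 3 had an unadjusted p under 0.05, miR-199a-3p and miR-199b-3p higher at 1.14 each and miR-214-3p lower at -1.20. miR-199a-3p and miR-199b-3p had the same levels and differences, so both carry 1 signal in these counts and in the sum. The summed level of 5 leukocyte entries spanned 12.1 to 13.1 among CHR, 8.95 to 11.2 among PAP and 10.8 to 12.3 among cuSCC. Of its 3 tested, 1 was lower in PAP against CHR, 1 was higher and 1 lower in cuSCC against CHR, and 1 was higher in cuSCC against PAP. The cuSCC of mouse 10 had the lowest sum of the 6 cuSCC for smooth muscle (12.22), fibroblasts (10.84) and, close to the next at 10.91, leukocytes (10.78), as it had for the members. It had the highest sum of the 6 for the other muscle microRNAs (17.95, the next at 16.19), for the erythroid entries (12.28, the next at 10.15) and, by a small margin, for the epithelial entries (18.54), and was second lowest for the endothelial entries (9.93). The sum for the other muscle microRNAs is mostly miR-486-5p, made in muscle and in red blood cells, whose highest cuSCC level was 17.84. Its miR-208 and miR-499 entries were undetected in every library.

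Of the other lists, the 2 endothelial entries were called higher in cuSCC against CHR and against PAP, and neither was called in PAP against CHR. Of the 7 epithelial entries, 4 were higher in PAP and 3 in cuSCC against CHR, and 1 was lower in cuSCC against PAP, with miR-203-3p and miR-205-5p called in no comparison. The 1 tested erythroid entry, miR-451a, was higher in PAP and in cuSCC against CHR. Which cells held the muscle microRNAs was not tested. Fewer such cells and less of these microRNAs per cell cannot be told apart in such libraries. The part of the marker lists in the differences of the muscle microRNAs was not tested.

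**Figure D4:**
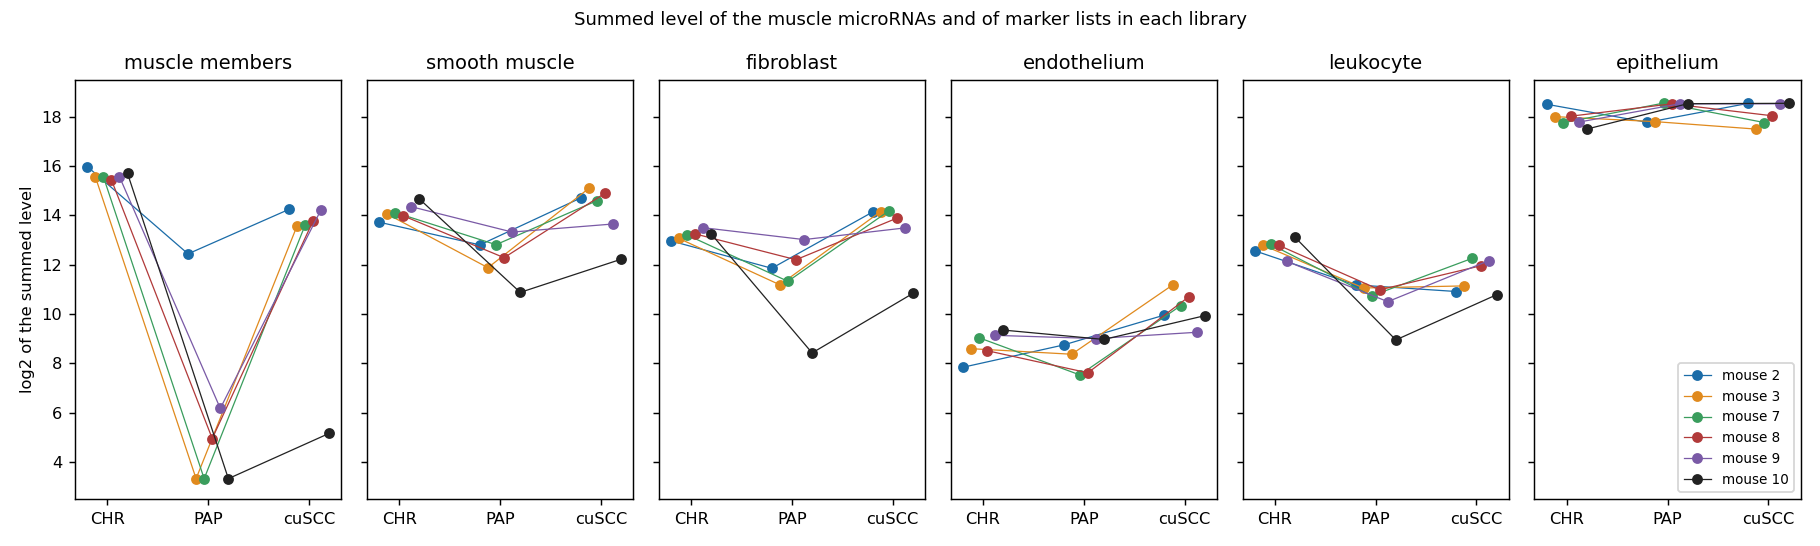
Log2 of the summed level of the 5 muscle members and of marker lists in each library, with lines joining the libraries of 1 mouse. The member sums lay at 15.44 to 15.98 in CHR and dropped to between 3.32 and 12.44 in PAP, a wider range than any marker list showed, and the cuSCC of mouse 10 stood lowest of the cuSCC for members, smooth muscle, fibroblasts and leukocytes.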

How the data were processed

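The data were 18 small RNA libraries, 3 from each of 6 SKH-1E Hairless mice (CHR, PAP, cuSCC). The authors trimmed adapters, removed reads that were very short or ended in long homopolymers, matched reads to miRBase by BLAST and gave each microRNA in ppm of the usable reads. The deposited values are log2 values. The log2 scale, the quantile normalization and the lowest value of 10 ppm were read from the values and the table's name, as no source used here describes them for the mouse data. Read totals were not used, so the depth is unknown and counting error could not be given. The submitters' processing notes name mm10, the UCSC name of GRCm38, and coordinates and hairpins come from its annotation. Sources used here give no version of BLAST or miRBase.

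MicroRNAs detected, that is over the lowest value, in 6 or more of 18 libraries were tested (293 of 1251) with limma 3.58.1 in R 4.3.3 (two-sided, 6 libraries of each sample type, no block for mouse), with Benjamini-Hochberg adjustment over all 293. Differences within a library and correlations were tested exactly in Python 3.11.15 (numpy 2.4.6, pandas 2.3.3, scipy 1.17.1), and plots used matplotlib 3.10.9. The programs were tested on simulated data. The libraries of a mouse come from the same animal and are therefore paired. Deviations of these libraries from their group means correlated at 0.025 (PAP and CHR), -0.0676 (cuSCC and CHR) and 0.0582 (cuSCC and PAP) on average, over 0.1 in 2, 1 and 2 of 6 mice. With 1 litter, p-values measure the spread between these mice only.

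The members, the marker lists and the alternatives were chosen with earlier results of these data known. Text names all 5 members, the other arms and muscle microRNAs of fixed lists, the defining smooth muscle and epithelial markers, and the 5 microRNAs most like the members. Outside that rule it names miR-451a, miR-199a-3p, miR-199b-3p, miR-214-3p and the 2 names that share a seed. Alternatives were other filters, a fit on all 3 sample types, a block for mouse, centring, an exact and an unmoderated test, other placings of undetected values and leaving out mice. Leaving out the PAP of mouse 2, and for differences within a library the cuSCC of mouse 10 with raised undetected values, was chosen after seeing the data.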

Additional observations from a re-analysis of the deposited data

Results flagged for a closer look

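Of 16 groups of 6 libraries checked for a library far from the others, 6 held one. The rule flags about 1 in 20 groups by chance where values are untied and follow a normal distribution. Several groups here hold values tied at the lowest value, so that rate cannot be set against the 6. The groups share libraries and members, so the 6 are not separate events. mmu-miR-133a-3p in the PAP of mouse 2 stood at 12.44, with the next PAP at 6.17, and in the cuSCC of mouse 10 at 5.16, with the next cuSCC at 13.55. mmu-miR-1a-3p in the cuSCC of mouse 2 stood at 3.47, with every other library at 3.32. The same 2 libraries stood apart in the differences that use mmu-miR-133a-3p. In the PAP of mouse 2 both mmu-miR-133b-3p and mmu-miR-133a-5p lay at -9.12 relative to it, and in the cuSCC of mouse 10 mmu-miR-133a-5p lay at -1.84 relative to it. The smooth muscle sum of the PAP of mouse 2 was 12.8, within the range of the other PAP.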

How the results depend on the processing

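Mouse as a replicate block changed no call of a member. PAP against CHR kept 3 members called lower, cuSCC against CHR had mmu-miR-133a-3p lower (limma, adjusted p = 0.0373) and cuSCC against PAP had 3 called higher (limma, adjusted p = 0.0222, 0.0384 and 0.0435). With the block, sign flips within mice gave the 6 comparisons of mmu-miR-133a-5p or mmu-miR-133b-3p minus mmu-miR-133a-3p an adjusted p of 0.0417, except 0.102 for mmu-miR-133b-3p minus mmu-miR-133a-3p from PAP to cuSCC (exact permutation test). Of the differences from mmu-miR-1a-3p, that of mmu-miR-206-3p from PAP to cuSCC lost its call (exact permutation test, adjusted p = 0.0182 without and 0.075 with the block).

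Members called numbered 3 in PAP against CHR. They were 1 with detection in at least 12 libraries (where 1 member was tested), 1 with undetected values raised to the library's lowest detected value and 1 with values raised to 100 ppm, and 3 whichever mouse was left out. In cuSCC against CHR the 1 called became 0 with detection in at least 1 library, in the fit on all 3 sample types, in the unmoderated test and at 100 ppm, and 0 to 1 without each mouse. In cuSCC against PAP the 3 called became 0 with detection in at least 1 library, by the exact and the unmoderated tests and at 100 ppm, 1 with detection in at least 12 libraries and 1 with undetected values so raised, and 0 to 3 without each mouse. Over all microRNAs 27 of 293 were called higher there, and 2 of 433 with detection in at least 1 library, 0 and 5 of 293 by the exact and unmoderated tests and 2 of 293 at 100 ppm. The cause was not tested, apart from the fewer members tested at 12 libraries.

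The change of mmu-miR-133b-3p minus mmu-miR-133a-3p from PAP to cuSCC, -4.30, missed the threshold in the values as deposited. It passed with undetected values raised (-4.77) and at 100 ppm (-4.83). It also passed without the cuSCC of mouse 10 (-5.25, or -5.91 with undetected values also raised) and without the PAP of mouse 2 (-5.67). With a whole mouse left out it ranged from -5.57 to -3.52. It then passed only without mouse 2 (exact permutation test, adjusted p = 0.019). Without each of the other mice it did not pass (exact permutation test, adjusted p = 0.0519 to 0.165). Signs turned for differences that were not called. In cuSCC against CHR mmu-miR-133b-3p was at 0.13 at 100 ppm and 0.09 without the cuSCC of mouse 10, and ranged from -0.73 to 0.24 without each mouse, the highest without mouse 10. mmu-miR-206-3p was at 0.029 at 100 ppm and ranged from -1.06 to 0.13 without each mouse, the highest again without mouse 10. With undetected values raised mmu-miR-133a-5p was at 1.21 in PAP against CHR and -1.70 in cuSCC against PAP. That placing moved the median of all 293 from -0.23 to 0.44 in PAP against CHR and from 0.21 to -0.48 in cuSCC against PAP, and calls over all microRNAs from 41 higher and 54 lower to 63 and 37, and from 27 and 7 to 18 and 62.

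Depth per library is unknown, the 5 members are few, mmu-miR-1a-3p could not be tested, and a level under a library's lowest detected value has an upper limit only.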
